A study of Sus scrofa with 12 samples.

Results

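SH3BGRL3, TRIM47, PRCP and ELOVL7 were described in the longissimus dorsi muscle of 12 Iberian pigs, as 4 of the 25880 genes listed in the count tables. They were chosen by their measured counts, as well-counted genes with a higher level in the High MB group than in the Low MB group, so those levels are given below as a description, with no test. The High MB group held 6 pigs with high estimated breeding values (EBV) for muscle myoglobin, between 0.159 and 0.206, and the Low MB group held 6 pigs with low values, between -0.248 and -0.149. Measured muscle myoglobin averaged 2.48 ± 0.0657 mg/g in the former and 1.39 ± 0.147 mg/g in the latter (SD, n = 6 each). All pigs were males of the Iberian breed, castrated according to the study, and were finished outdoors on acorns and grass. They came from a closed commercial population, which limits the groups as a model of the breed, and 1 library was made from each pig, so the spread between libraries includes that between animals.

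The products of these genes have different known functions. SH3BGRL3 is a small thioredoxin-fold protein of the SH3BGR family that lacks the redox-active cysteine pair of true thioredoxins and glutaredoxins. TRIM47 belongs to the tripartite motif (TRIM) proteins, a family of RING-type E3 ubiquitin ligases whose best known muscle members act in protein turnover. PRCP is prolylcarboxypeptidase, a lysosomal and secreted enzyme that removes the last amino acid of a peptide when it follows a proline, and its substrates include angiotensin II. ELOVL7 is an elongase of the endoplasmic reticulum that carries out the condensing step by which long-chain fatty acids gain carbons.

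The 4 genes lie on 4 chromosomes. On Sscrofa11.1, with RefSeq annotation, SH3BGRL3 (ENSSSCG00000034937) spans chromosome 6 from 83687473 to 83689076 on the plus strand, with 3 exons that cover 927 bp. TRIM47 (ENSSSCG00000017199) spans chromosome 12 from 5535259 to 5539721 on the plus strand, with 6 exons that cover 2323 bp. PRCP (ENSSSCG00000014899) spans chromosome 9 from 17002699 to 17134446 on the minus strand, and the exons of its 6 transcripts cover 2980 bp. ELOVL7 (ENSSSCG00000035012) spans chromosome 16 from 39588122 to 39680273 on the minus strand, and the exons of its 2 transcripts cover 4384 bp.

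The annotation sets limits for 3 of them. Of the SH3BGRL3 exon bases, 81.7% (757 bp) also lie in exons of CEP85 on the same strand, so reads could be split between these genes or set aside as ambiguous, and its level is uncertain to that extent. PRCP shares 104 bp, or 3.49% of its exon bases, with RAB30, and DDIAS lies inside its span on the opposite strand without a shared exon base. The identifier counted for ELOVL7 carries that symbol in the names table used here, but the study calls it DEPDC1B, the gene that RefSeq places 29371 bp from ELOVL7 on the same strand. The levels given here belong to the identifier, and the separate identifier that the names table pairs with DEPDC1B was not analysed here.

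Bases upstream of a transcript start are shown for 3 of the genes, to let these regions be compared. The windows of TRIM47 (chr12:5535009-5535258, plus strand) and ELOVL7 (chr16:39680274-39680523, minus strand) hold the 250 bases before the RefSeq start, and that of PRCP is the 78-base gap between the start of 1 of its 6 RefSeq transcripts, inside the span of the gene, and the start of DDIAS (chr9:17077806-17077883, minus strand). Capitals mark 3 motifs on either strand, the GC box with the letters GGGCGG, the CCAAT motif, and the TATA box searched as TATAAA. The sequences run 5′ to 3′ on the strand of the gene.
TRIM47: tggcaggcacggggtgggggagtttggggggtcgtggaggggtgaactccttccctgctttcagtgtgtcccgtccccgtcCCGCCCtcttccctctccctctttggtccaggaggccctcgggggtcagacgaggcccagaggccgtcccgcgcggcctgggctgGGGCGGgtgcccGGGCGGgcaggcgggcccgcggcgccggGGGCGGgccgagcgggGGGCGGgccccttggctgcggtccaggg
ELOVL7: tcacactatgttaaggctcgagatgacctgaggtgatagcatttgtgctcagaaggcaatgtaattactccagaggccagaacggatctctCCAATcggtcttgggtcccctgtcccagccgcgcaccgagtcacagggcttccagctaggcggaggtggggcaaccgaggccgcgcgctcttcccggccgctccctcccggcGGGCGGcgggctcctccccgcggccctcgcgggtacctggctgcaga
PRCP: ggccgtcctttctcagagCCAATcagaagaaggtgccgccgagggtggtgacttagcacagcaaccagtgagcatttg
TRIM47 had 5 GC boxes, no CCAAT, a G+C content of 77.2% and 24 CpG dinucleotides. ELOVL7 had 1 GC box and 1 CCAAT, with 64.8% G+C and 21 CpG. The PRCP gap had 1 CCAAT and no GC box in 78 bases, so its counts are not comparable with those of windows of 250 bases. No TATAAA occurred in the 3 sequences. Over 19556 windows of 250 bases before RefSeq starts, the GC box occurred in 46.2%, CCAAT in 31.8% and TATAAA in 9.73%, and the median G+C content was 58%. These matches describe letters and not bound sites. The window of SH3BGRL3 lies wholly in CEP85 exons, so its sequence is not shown.

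Gene counts summed to between 38914271 and 91318334 per library. The 7 standard libraries reached at most 40001432 and the 5 deep ones at least 59227608, with 2 deep libraries in the High MB group (pigs 4 and 6) and 3 in the Low MB group (pigs 1, 5 and 6). Raw counts of the 4 genes lay between 95 (ELOVL7, Low MB pig 3) and 1246 (SH3BGRL3, High MB pig 6). Levels are given as CPM after TMM scaling, which divides each count by the adjusted size of its library and so sets the libraries on a common scale. High MB pig 2 and Low MB pig 4 formed the smaller branch of a tree of all 13373 genes tested. Muscle fibre markers identified the tissue in every pig, and their summed level was lowest in High MB pig 2, at 41986 CPM against 74430 or more in each of the other pigs.

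With edgeR, 0 of 13373 genes (0%) passed an adjusted p of 0.10 with an absolute log2 fold change over 0.58 between the groups, and DESeq2 called 29. An unadjusted edgeR p under 0.05 was reached by 1132 genes (8.46%), with 713 (5.33%) higher in the High MB pigs and 419 (3.13%) lower. The smallest edgeR p after Benjamini-Hochberg adjustment was 0.563.

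All 4 genes had higher mean levels in the High MB group, by 1.56- to 1.65-fold, as their choice required. SH3BGRL3 and TRIM47 separated the groups completely. Such separation was seen in 31 of the genes tested (0.232%), and since the choice used the same values nothing is read from it. A log2 fold change over 0.58, which all 4 had, was seen in 906 genes (6.77%).

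SH3BGRL3 had the highest level of the 4. Its CPM in the High MB pigs had a lowest value of 11.4, a median of 13.2 and a highest value of 15.0, with a mean of 13.0 ± 1.42 (SD, n = 6). For the Low MB pigs the lowest value was 5.67, the median 8.14 and the highest 10.8, with a mean of 8.16 ± 1.77 (SD, n = 6). The groups did not overlap, and the narrowest gap lay between High MB pig 1 at 11.4 and Low MB pig 6 at 10.8. High MB pigs 2 and 5 were the highest, Low MB pig 3 the lowest. The log2 fold change was 0.68 (SE 0.15).

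TRIM47 separated the groups by a smaller margin. Its CPM in the High MB pigs had a lowest value of 6.58, a median of 7.70 and a highest value of 12.4, with a mean of 8.37 ± 2.15 (SD, n = 6). The Low MB pigs had a lowest value of 4.45, a median of 5.27 and a highest value of 6.44, with a mean of 5.35 ± 0.791 (SD, n = 6). High MB pig 6 stood above all others, and the gap between High MB pig 3 and Low MB pig 6 was small beside the spread within either group. The log2 fold change was 0.65 (SE 0.17), and 0.50 when High MB pig 6 was left out. The same pig had the highest summed level of smooth muscle and pericyte markers, 893 CPM against 201 to 340 in the other High MB pigs and 174 to 459 in the Low MB pigs, and the part of these markers in the TRIM47 level was not tested. The identity of the identifier named MYH11 in this list is uncertain, and without it the sum was 677 CPM in High MB pig 6, against 187 to 322 and 166 to 397 CPM.

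PRCP overlapped between the groups. Its CPM in the High MB pigs had a lowest value of 5.66, a median of 9.12 and a highest value of 10.4, with a mean of 8.47 ± 1.99 (SD, n = 6). Among Low MB pigs the lowest value was 3.76, the median 4.72 and the highest 7.49, with a mean of 5.14 ± 1.31 (SD, n = 6). Of the High MB pigs, 4 were above every Low MB pig, whereas pigs 1 and 5 fell below Low MB pig 6, and pig 1 also fell just below Low MB pig 5. The log2 fold change was 0.72 (SE 0.20).

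ELOVL7 had the lowest level. Its CPM in the High MB pigs had a lowest value of 3.37, a median of 5.34 and a highest value of 6.04, with a mean of 5.15 ± 0.978 (SD, n = 6). In the Low MB pigs the lowest value was 2.28, the median 2.81 and the highest 4.28, with a mean of 3.11 ± 0.871 (SD, n = 6). High MB pig 3 was the only one of its group to reach down into the Low MB range, where Low MB pigs 5 and 6 were above it. The log2 fold change was 0.72 (SE 0.20).

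**Figure D1:**
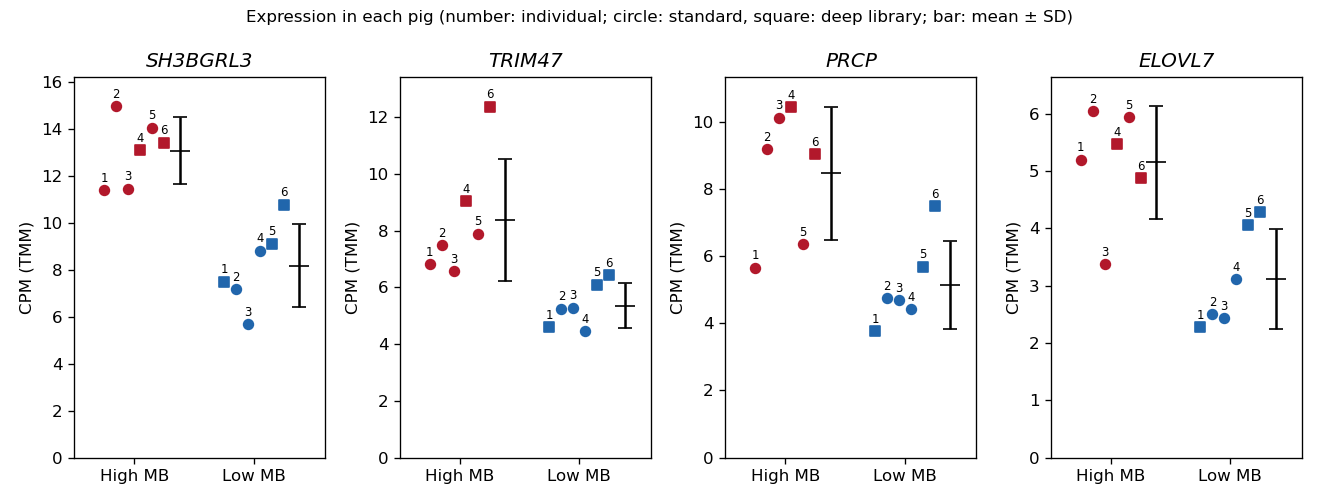
CPM (TMM) of SH3BGRL3, TRIM47, PRCP and ELOVL7 in each of the 12 pigs, with the group on the x axis, squares for deep and circles for standard libraries, and the mean ± SD of each group beside the points. SH3BGRL3 and TRIM47 do not overlap between groups, while PRCP and ELOVL7 do, and Low MB pigs 5 and 6 are the highest of their group in every panel.

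The places of the pigs among the 12 follow in part from the choice of the genes, and are given as a description. High MB pigs 2, 4 and 5 were each among the 3 highest of the 12 pigs for 3 of the 4 genes. Low MB pig 1 was among the 3 lowest for all 4 genes and had the lowest PRCP and ELOVL7 levels. Low MB pigs 5 and 6 were the highest 2 of their group for every gene, and pig 6 reached the upper 6 pigs for PRCP and ELOVL7. The High MB pigs changed places between genes, and pig 3 ranked 2 of 12 for PRCP and 8 of 12 for ELOVL7. When Low MB pig 6 was left out, the log2 fold change reached its highest value for each gene, 0.77 for SH3BGRL3, 0.71 for TRIM47, 0.86 for PRCP and 0.84 for ELOVL7. Without High MB pig 2 and Low MB pig 4, an alternative added after the data were seen, the log2 fold changes were 0.68, 0.65, 0.68 and 0.70 in the same order.

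Per kilobase of RefSeq exon, the order of the levels was SH3BGRL3 at 11.4 ± 3.21 CPM, TRIM47 at 2.95 ± 0.949, PRCP at 2.28 ± 0.796 and ELOVL7 at 0.942 ± 0.315 (mean ± SD over 12 pigs). SH3BGRL3 was above TRIM47 and PRCP was above ELOVL7 in 12 of 12 pigs. TRIM47 was above PRCP in 11 of 12, although their difference was smaller than the SD of either gene. Among genes tested and with a RefSeq length, these levels stood at the percentiles 76.2, 48.8, 43.3 and 27.7. The length of SH3BGRL3 includes the bases shared with CEP85, where reads could be set aside, so its level per kilobase may be too low. The biological coefficient of variation from edgeR was 19.7% for SH3BGRL3, 22.2% for TRIM47, 25.1% for PRCP and 25.8% for ELOVL7, at the percentiles 37.9, 40.7, 60.9 and 45.2 of genes at a similar level. Counting error alone at the median count of each gene would give 4.30% to 6.70%.

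In the deposited transcript tables, ENSSSCT00000050998 and ENSSSCT00000018724 repeated the gene counts of SH3BGRL3 and TRIM47 in 12 of 12 pigs. Isoforms of PRCP and ELOVL7 were not analysed here.

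Depth was compared next, because the choice of the genes had not used it. Over all genes, 0 of 13373 (0%) had an adjusted p under 0.10 between deep and standard libraries with the group in the model, and 1854 (13.9%) had an unadjusted p under 0.05. TRIM47 was the only one of the 4 genes in the latter set, with a log2 difference of 0.38 (deep over standard, 95% interval 0.07 to 0.69) and an edgeR p of 0.297 after Benjamini-Hochberg adjustment. The differences were 0.19 (-0.13 to 0.51) for SH3BGRL3, 0.30 (-0.11 to 0.71) for PRCP and 0.21 (-0.24 to 0.66) for ELOVL7. Their edgeR adjusted p-values were 0.59, 0.50 and 0.68. Every estimate was positive and none passed the threshold, and the upper ends of the intervals lay between 0.51 and 0.71.

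The differences between the groups in each depth class come from the values that chose the genes, and are given as a description. Within the deep class (High MB pigs 4 and 6 against Low MB pigs 1, 5 and 6) the log2 fold change was 0.54 (SE 0.23) for SH3BGRL3, 0.91 (SE 0.22) for TRIM47, 0.79 (SE 0.30) for PRCP and 0.55 (SE 0.32) for ELOVL7. Within the standard class (High MB pigs 1, 2, 3 and 5 against Low MB pigs 2, 3 and 4) it was 0.85 (SE 0.20), 0.53 (SE 0.19), 0.76 (SE 0.26) and 0.94 (SE 0.28) in the same order. SH3BGRL3 and ELOVL7 had the larger value in standard libraries and TRIM47 in deep ones. The interaction of group and depth was called for 0 of 13373 genes (0%), and 193 (1.44%) had an unadjusted p under 0.05, none of the 4 genes among them. Its estimates (deep minus standard) were -0.31 (95% interval -0.95 to 0.34) for SH3BGRL3, 0.38 (-0.24 to 1.00) for TRIM47, 0.03 (-0.84 to 0.89) for PRCP and -0.39 (-1.30 to 0.52) for ELOVL7.

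**Figure D2:**
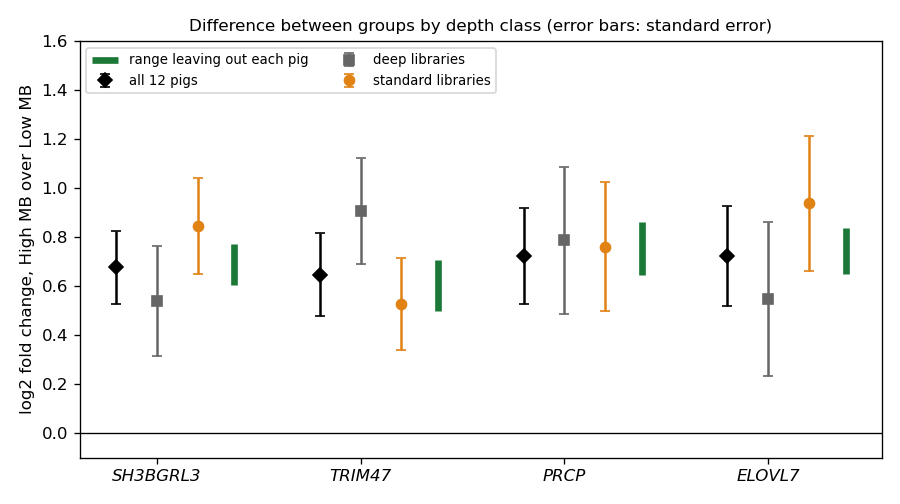
Log2 fold change of High MB over Low MB for each gene over all 12 pigs (diamonds), in deep libraries (squares) and in standard libraries (circles), with standard errors, and green bars for the range when each pig is left out in turn. All points lie above 0, and the leave-out range of TRIM47 reaches lowest, to 0.50 without High MB pig 6.

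Myoglobin content among pigs of the same group was the next measure that the choice had not used. Its slope was called for 0 of 13373 genes (0%), and 515 (3.85%) had an unadjusted p under 0.05, none of the 4 genes among them. The slopes, in log2 units per mg/g of myoglobin, were -0.93 (95% interval -2.47 to 0.61) for SH3BGRL3, -1.17 (-2.82 to 0.48) for TRIM47, -1.31 (-3.26 to 0.63) for PRCP and -0.73 (-2.92 to 1.46) for ELOVL7. All 4 estimates were negative, opposite in sign to the difference between the groups, and every interval included 0. With depth class as a covariate the slope was -0.70 for SH3BGRL3, -0.63 for TRIM47, -0.96 for PRCP and -0.42 for ELOVL7. Within the High MB group alone, r with myoglobin content was 0.403 for ELOVL7, 0.106 for SH3BGRL3, -0.169 for PRCP and -0.438 for TRIM47. Within the Low MB group it was -0.415, -0.530, -0.574 and -0.593 in the same order, and none of these 8 values passed the adjustment over the 16 relations with traits (adjusted p of 0.597 or more, exact permutation test).

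The individual EBV gave 1 relation out of 16 with the traits that passed the adjustment. In the High MB group, TRIM47 was lower where the EBV was higher, with r = -0.924 over 6 pigs (exact permutation test of the pairings, two-sided, p = 0.00278, adjusted p = 0.0444). Spearman's rho was -0.943 (exact permutation p = 0.0167, adjusted p = 0.267), so the call did not hold on ranks. Without the 2 pigs farthest from the median EBV, r was -0.984, and leaving out each pig in turn gave values between -0.978 and -0.904.

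The deep libraries of the group, pigs 4 and 6, had the lowest EBVs, 0.168 and 0.159, and the highest TRIM47 levels, 9.03 and 12.4 CPM. The 4 standard libraries gave r = -0.973, a description with no test, and held TRIM47 at 7.90 CPM (EBV 0.178, pig 5), 7.5 (0.190, pig 2), 6.58 (0.205, pig 3) and 6.82 (0.206, pig 1). In the Low MB group r was -0.506 (exact permutation p = 0.335, adjusted p = 0.597), and whether the relation differs between groups was not tested. The other 3 genes gave r between -0.649 and -0.315 with EBV over both groups, none of which passed the adjustment.

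**Figure D3:**
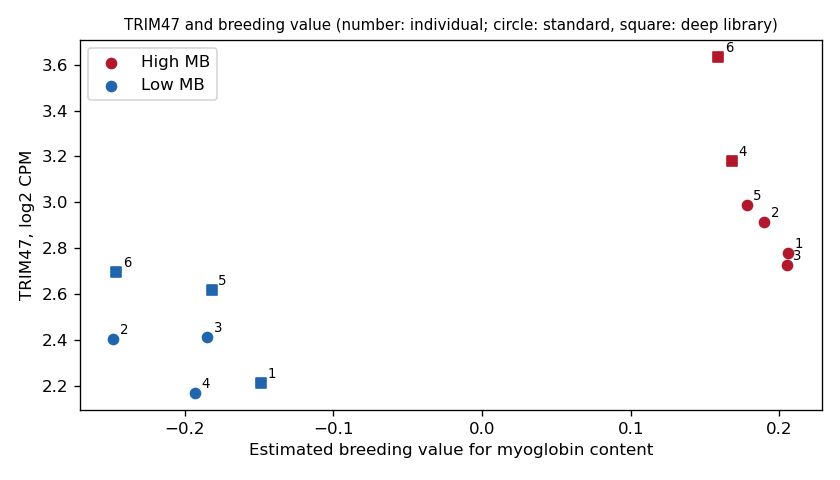
Log2 CPM of TRIM47 (y axis) against the estimated breeding value for myoglobin (x axis) in 12 pigs, coloured by group, with squares for deep libraries. In the High MB pigs the points descend from pig 6 at the lowest EBV, while the Low MB pigs lie lower and follow no such order.

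Correlations between the 4 genes were computed within each group, for 12 relations, since the choice of the genes sets the groups apart. In the Low MB group all 6 were positive, with r between 0.432 and 0.911. TRIM47 and PRCP had r = 0.911 (exact permutation p = 0.00833, adjusted p = 0.0917) and PRCP and ELOVL7 had r = 0.863 (exact permutation p = 0.0153, adjusted p = 0.0917). On ranks, rho was 0.886 and 0.829, both with an adjusted p of 0.233 by the exact permutation test. SH3BGRL3 and ELOVL7 had r = 0.850 (exact permutation p = 0.0292, adjusted p = 0.117).

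Without the 2 pigs farthest from the median of the gene named first, r was 0.994 for TRIM47 and PRCP, 0.722 for PRCP and ELOVL7 and 0.904 for SH3BGRL3 and ELOVL7. Each was weakest without Low MB pig 6, at 0.879, 0.782 and 0.746. The deep class held 3 Low MB pigs and the standard class 3, too few for a value within each. Of the deep ones, pig 1 was low and pigs 5 and 6 were high for these genes.

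In the High MB group r lay between -0.368 (PRCP and ELOVL7) and 0.719 (SH3BGRL3 and ELOVL7), and no relation passed the adjustment (smallest adjusted p = 0.223, exact permutation test). High MB pig 3, with high PRCP and low ELOVL7, had the position farthest from the Low MB pattern. The difference between the groups in these correlations was not tested.

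**Figure D4:**
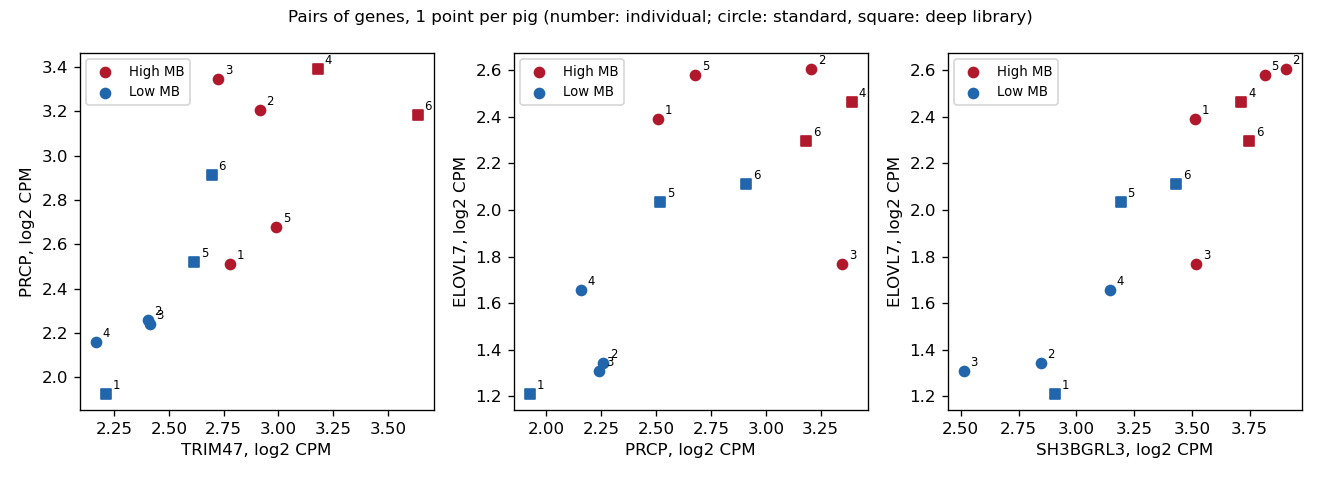
Log2 CPM of 3 pairs of genes in 12 pigs, coloured by group, with squares for deep and circles for standard libraries. The Low MB pigs run from pigs 1 to 4 at the low end to pigs 5 and 6 at the high end in the panels with PRCP, whereas High MB pig 3 combines high PRCP with low ELOVL7.

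Relatives of SH3BGRL3 were then compared with it. SH3BGR, which gave the family its name, was far more abundant per kilobase (287 CPM against 11.4). The value of SH3BGRL3 may be too low, since most of its exon bases are shared with CEP85. SH3BGR had 336 ± 72.1 CPM in the High MB group and 355 ± 49.2 CPM in the Low MB group (SD, n = 6 each). Its log2 fold change was -0.08 (SE 0.16). SH3BGRL2 was scarce, with 1.41 ± 0.686 against 0.881 ± 0.217 CPM and a log2 fold change of 0.69 (SE 0.33, edgeR p after Benjamini-Hochberg adjustment 0.590). Among 10 other genes tested in the list of the SH3BGR family and the thioredoxin and glutaredoxin systems, 0 were called by edgeR, and 0 had an unadjusted p under 0.05 in either direction, beside 8.46% of all genes. That count was 1 with DESeq2, with upper-quartile size factors and with a filter of at least 10 counts in every pig, and 1 without High MB pig 2 or pig 3 or without Low MB pig 6. Their median log2 fold change was -0.01, beside -0.02 over all genes tested.

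TRIM47 stood at place 15 of 38 TRIM genes with a RefSeq length by level per kilobase, below the muscle ligase TRIM63 and the sarcomere-associated TRIM54. Of 39 other TRIM genes tested, 0 were called by edgeR, 2 had an unadjusted p under 0.05 with a higher level in the High MB group and 1 with a lower level, beside 5.33% and 3.13% of all genes tested. Their median log2 fold change was 0.05, against -0.02 over all genes. TRIM34, an interferon-responsive member, had 1.48 ± 0.669 CPM in the High MB group and 0.473 ± 0.174 CPM in the Low MB group (SD, n = 6 each). Its log2 fold change was 1.62 (SE 0.37), from 8 to 168 reads per library, with an adjusted p of 0.563 in edgeR and 0.0160 in DESeq2. TRIM56 gave 0.59 (SE 0.23) and TRIM23 gave -0.32 (SE 0.12). The count of higher genes was 1 without High MB pig 4 or pig 5 and 4 without Low MB pig 6, and it was 1 with the filter of at least 10 counts in every pig. The count of lower genes was 0 without Low MB pig 2.

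PRCP was at place 18 of 26 by level per kilobase among prolyl peptidases and genes of the angiotensin and kinin system. Of 26 others tested, 0 were called by edgeR, 4 had an unadjusted p under 0.05 with a higher level in the High MB group and 3 with a lower level, beside 5.33% and 3.13% of all genes tested. Their median log2 fold change was 0.16, against -0.02 over all genes. Higher were SCPEP1, a serine carboxypeptidase (0.46, SE 0.14), NOS3, the endothelial nitric oxide synthase (0.67, SE 0.20), and ANPEP, aminopeptidase N (1.20, SE 0.43). Lower were DPP9, a cytosolic dipeptidyl peptidase (-0.24, SE 0.08), PREPL (-0.44, SE 0.17) and LNPEP, an aminopeptidase that binds angiotensin IV (-0.41, SE 0.16). The count of higher genes was 7 without Low MB pig 5, and that of lower genes was 1 without Low MB pig 4.

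Taken as ELOVL7, with the length of that gene, the identifier was at place 17 of 21 by level per kilobase in the list of fatty acid elongation and desaturation. The other elongases tested had positive log2 fold changes, 0.39 (SE 0.18) for ELOVL1, 0.59 (SE 0.40) for ELOVL4, 0.64 (SE 0.32) for ELOVL5 and 0.34 (SE 0.44) for ELOVL6. None of these had an unadjusted p under 0.05, and ELOVL2 and ELOVL3 were too low to be tested. Of 20 other genes of the list, 0 were called by edgeR and 2 had an unadjusted p under 0.05, both higher in the High MB group, as were 5.33% of all genes tested. These were FADS2, the delta-6 desaturase (0.62, SE 0.21), and SCD5, a stearoyl-CoA desaturase (0.80, SE 0.35). The median log2 fold change of the list was 0.40, against -0.02 over all genes. The count of higher genes was 1 without High MB pig 4 or Low MB pig 1, 4 without High MB pig 1, and 6 without Low MB pig 5 or pig 6. It was 5 with DESeq2 and 1 with the replicate block.

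The genes nearest to the 4 on the chromosome were compared too. CEP85, which shares exons with SH3BGRL3, had 101 ± 25.6 CPM in the High MB group and 98.4 ± 23.6 CPM in the Low MB group (SD, n = 6 each), a log2 fold change of 0.04 (SE 0.19). UBXN11, whose span overlaps that of SH3BGRL3 on the other strand, gave -0.35 (SE 0.30). Beside TRIM47, TRIM65 gave 0.16 (SE 0.22) and WBP2 gave -0.14 (SE 0.15). DDIAS, inside the span of PRCP, gave 0.57 (SE 0.42) at 11 to 70 counts per library, and ERCC8, next to ELOVL7, gave -0.15 (SE 0.13). None of these 6 genes had an unadjusted p under 0.05. RAB30, which shares exon bases with PRCP and was added after its values were seen, gave -0.19 (SE 0.42) at 22 to 119 counts per library.

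**Figure D5:**
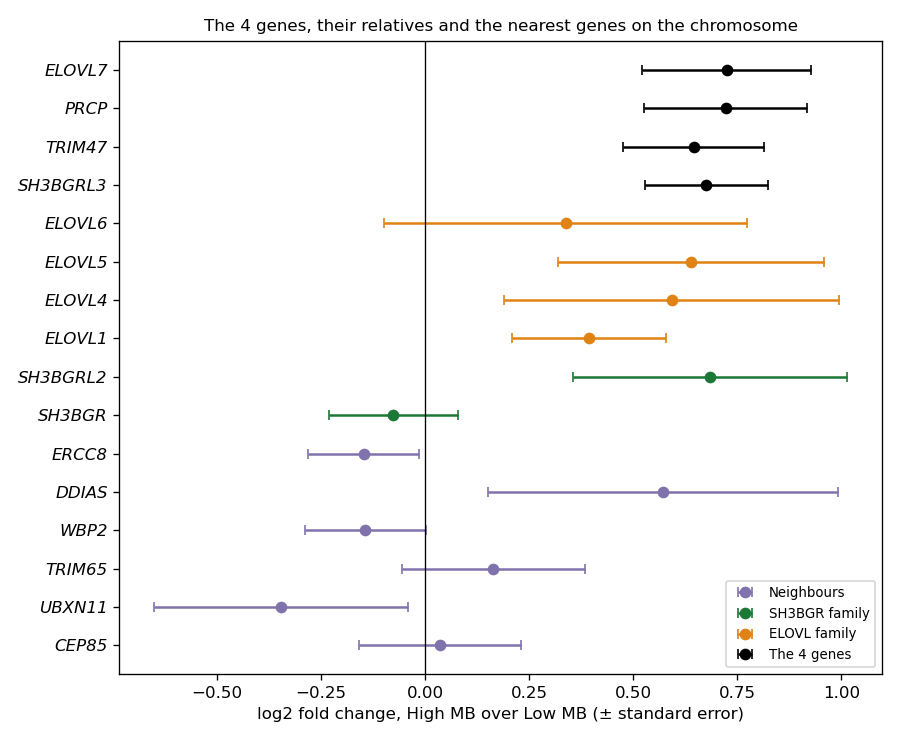
Log2 fold change of High MB over Low MB (x axis, with standard error) for the 4 genes, their family members and the nearest genes on the chromosome. The 4 genes, chosen for this difference, lie between 0.65 and 0.72, the 4 other elongases lie between 0.34 and 0.64, and 5 of the 6 nearest genes lie between -0.35 and 0.16.

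Markers of other cell types in muscle were examined in the same pigs. In this bulk tissue, more cells of a type and more RNA per cell cannot be told apart. Of 10 macrophage markers, 7 had an unadjusted p under 0.05 with a higher level, as did 5.33% of all genes. All 10 log2 fold changes were positive (median 0.93). Their summed level ran from 168 to 270 CPM in the High MB pigs and from 124 to 193 CPM in the Low MB pigs. Of 7 fibroblast markers, 4 had an unadjusted p under 0.05 (2 without Low MB pig 1) and all 7 log2 fold changes were positive (median 0.64), with summed levels of 646 to 1146 against 340 to 841 CPM. Of 8 endothelial markers, 1 had an unadjusted p under 0.05 (5 without Low MB pig 5, 2 without High MB pig 1 or pig 2, 3 with the replicate block and 2 with upper-quartile size factors) and all 8 log2 fold changes were positive (median 0.26), with summed levels of 203 to 263 against 152 to 266 CPM.

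Of 5 adipocyte markers, 1 had an unadjusted p under 0.05 (4 without Low MB pig 5, 3 with the depth covariate, and 0 without High MB pig 1, 3, 4 or 6 or Low MB pig 1, 2, 3 or 4) and all 5 log2 fold changes were positive (median 0.85), with summed levels of 285 to 505 against 296 to 463 CPM. None of the 6 smooth muscle and pericyte markers or of the 4 T cell markers had one, though 1 smooth muscle marker did without High MB pig 1 or 2 or without Low MB pig 5 or 6, and with the depth covariate or the replicate block, and their median log2 fold changes were 0.38 and 0.35. Of 7 muscle fibre markers, 2 had an unadjusted p under 0.05 with a higher level and 1 with a lower level, beside 5.33% and 3.13% of all genes tested. Their log2 fold changes ran from -0.44 to 0.58, and 5 were negative, with a median of -0.07. This list joins genes of slow and fast fibres, which were not separated, and MYH7, MYH2, MYH1, MYH4 and TTN were not matched to an identifier. The marker with a lower level no longer had such a p without High MB pig 1, 2 or 5 or Low MB pig 1, 2, 3, 4 or 5, nor under 6 other settings (RLE or upper-quartile scaling, the filter of 10 counts, removal of the 10 highest genes, the depth covariate and the replicate block). No marker was called after adjustment by edgeR, and no marker was at 0 counts in any library. The part of these markers in the levels of the 4 genes was not tested.

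Within a group, the 4 genes were set against the endothelial, macrophage and adipocyte lists, for 24 relations. None passed the adjustment (smallest adjusted p = 0.427, exact permutation test). The highest values were those of TRIM47 with the endothelial list in the Low MB group (r = 0.879, exact permutation p = 0.0264) and ELOVL7 with the adipocyte list in the same group (r = 0.817, exact permutation p = 0.0431). SH3BGRL3 with the macrophage list in the High MB group gave r = 0.783 (exact permutation p = 0.0597), or 0.400 without the 2 pigs farthest from the median of the list.

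The smooth muscle and pericyte list was set against the 4 genes for 8 relations, after the most alike genes, given below, had been seen. These relations were adjusted apart from the 24 above, so their adjusted p-values do not account for the choice of this list. In the Low MB group, ELOVL7 gave r = 0.932 (exact permutation p = 0.0125, adjusted p = 0.0778) and PRCP gave r = 0.860 (exact permutation p = 0.0194, adjusted p = 0.0778). On ranks rho was 0.771 for both, with an adjusted p of 0.274 by the exact permutation test. Without the 2 pigs farthest from the median of the list, r was 0.607 and 0.810. TRIM47 gave r = 0.841 in the High MB group and 0.853 in the Low MB group, with adjusted p-values of 0.161 and 0.137 by the exact permutation test. Without the 2 farthest pigs r was 0.266 and 0.298, so with the full list both values rested on those pigs. Without the identifier named MYH11, the Low MB value for ELOVL7 was 0.953 (adjusted p = 0.0667, exact permutation test). That for PRCP was 0.845 (adjusted p = 0.111, exact permutation test), so its adjusted p was no longer under 0.10. TRIM47 then gave 0.823 in the High MB group (0.956 without the 2 farthest pigs) and 0.819 in the Low MB group (0.0316 without them).

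The genes most like each of the 4 were found by Pearson's r of log2 CPM over the 12 pigs, after the mean of each group was taken off. For SH3BGRL3 they were EEIG1 (0.927), the unnamed ENSSSCG00000030325 (0.897), TNFSF13B, a B-cell survival cytokine (0.892), PCOLCE, an enhancer of procollagen processing (0.890), and PSD (0.885). For TRIM47 they were TGFB1I1, a focal adhesion adaptor (0.942), EFHD1, a calcium-binding protein (0.905), the unnamed ENSSSCG00000027301 (0.896) and ENSSSCG00000040755 (0.892), and NDE1, a dynein regulator (0.884). For PRCP they were BOK, a BCL2-family protein (0.917), RGL1 (0.914), GIT1 (0.886), the unnamed ENSSSCG00000038960 (0.885) and NLK (0.878). For ELOVL7 they were PLEKHA6 (0.965), TES, a focal adhesion protein (0.929), the unnamed ENSSSCG00000035585 (0.925) and SLC36A4, an amino acid transporter (0.908). These sets had no gene in common, and the values describe 12 libraries that share the depth classes above. Each set was picked as the highest r over all genes tested, so high values follow in part from that choice. TNFSF13B and ENSSSCG00000027301 were counted at a low level, between 2 and 35 and between 6 and 50 reads per library.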

How the data were processed

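RNA of 12 pigs was sequenced as paired reads from libraries of a kit that does not mark strand. Per the labels and the study's methods, the authors trimmed the reads with Trim Galore, aligned them with HISAT2 to the pig genome (Sscrofa11.1) and deposited raw, unnormalized HTSeq counts of genes and transcripts. The annotation release and overlap settings are not given in the sources used here. Of uniquely placed reads, 47.0% to 48.2% were assigned to a gene, and lines that name no gene were left out.

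Gene counts were tested with edgeR 4.0.16 in R 4.3.3 (TMM, filterByExpr, quasi-likelihood test, Benjamini-Hochberg over 13373 genes), with limits of 0.10 on the adjusted p and 0.58 on the absolute log2 fold change. DESeq2 1.42.0 was an alternative. Log2 CPM used a prior count of 2. Libraries over 50000000 gene counts were called deep. Depth, its interaction with the group, and myoglobin content centred in each group were fitted with the group in the model. Both tools were tested on simulated data.

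The 4 genes and all lists were chosen with earlier results of these data known. Other genes were named by rule: family members of SH3BGR and ELOVL, up to 3 genes per list and direction with the lowest unadjusted p under 0.05, tested neighbours, and the 5 most alike in pattern, of which 1 is not reported here. Symbols were matched for 14857 of 25880 identifiers, and RefSeq supplied positions, lengths and sequences. P-values cover the spread between these pigs. Alternatives were other scalings, filters, covariates, a replicate block and leaving out each pig.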

Additional observations from a re-analysis of the deposited data

How the results depend on the processing

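The count of genes called between the groups was 0 in edgeR under every other scaling, filter and covariate tried, and 29 with DESeq2, and the cause was not tested. Genes with an unadjusted p under 0.05 numbered 957 to 1533 over those settings and 844 to 1454 when each pig was left out. With the replicate block, 957 genes had an unadjusted p under 0.05 and 0 were called. The individual numbers did not pair the pigs, since deviations of same-numbered pigs correlated between -0.212 and 0.144 and 0 of 6 pairs matched best. The log2 fold changes of the 4 genes kept their direction in every alternative. Each alternative reused values that chose the genes, so these directions and the ranges that follow are a description. Leaving out each pig gave 0.60 to 0.77 for SH3BGRL3, 0.50 to 0.71 for TRIM47, 0.65 to 0.86 for PRCP and 0.65 to 0.84 for ELOVL7. Counts of the gene lists, recomputed after the data were seen, moved by over 1.5 times in 58 cases. With 6 pigs per group and 95 to 1246 reads per gene and library, the precision of each difference is that of its interval.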
